A study of Mus musculus with 3 samples.

Results

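The genes examined here are 10 genes of the MHC class I pathway, which shows peptides of a cell's own proteins to CD8+ T cells. They are the heavy chain genes H2-K1 and H2-D1, the light chain gene B2m, the peptide transporter and loading genes Tap1, Tap2 and Tapbp, the class I transactivator Nlrc5, and the immunoproteasome genes Psmb8, Psmb9 and Psmb10. They were taken by symbol from the 32285 genes of the count tables, and all 10 were found. Their counts were summed per library in cells gated by lineage genes, so the rule used no level of the 10 genes themselves.

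The study profiled CD45+ live immune cells from 4T1 mammary tumors by droplet single-cell RNA sequencing, to ask how blocking p38 alters the tumor's immune environment. Female BALB/c mice aged 6 to 8 weeks received 200000 tumor cells in a mammary fat pad, and tumors were taken on day 14. In the vehicle group the mice carried 4T1-luc tumors with wild-type p38a and were given DPBS for 10 days from day 4. In the p38i group they carried the same tumors and received the p38 inhibitor LY2228820 at 30 mg/kg daily by gavage over the same days, so the drug could act on tumor and host cells. In the p38KO group the tumors grew from p38a-KO-H9, a line from 1 clone of 4T1 cells in which CRISPR-Cas9 had disrupted p38a, and no treatment is listed. The host cells of the p38KO mice kept p38a, so the gene's level in sorted immune cells is no check of that label. Each group is 1 library pooled from the tumors of 3 mice. With 1 library per group there was no replicate check and no test between groups, and every interval given here covers counting error only. Differences between mice, pools and libraries cannot be told apart from the condition.

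A class I molecule is a heavy chain paired with the light chain beta-2 microglobulin, the product of B2m. Its peptides are cut by the proteasome, carried into the endoplasmic reticulum by the Tap1 and Tap2 transporter and loaded with the help of tapasin, the product of Tapbp. In immune cells and under interferon, the constitutive catalytic subunits of the proteasome, encoded by Psmb5, Psmb6 and Psmb7, are replaced by those encoded by Psmb8, Psmb9 and Psmb10. Nlrc5 drives class I transcription, and interferons of both types raise most of these genes.

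In the GRCm38 annotation, 7 of the 10 genes lie on chromosome 17, in the MHC region. From low to high coordinates these are Tapbp (chr17:33915899-33929292), H2-K1 (chr17:33996017-34000347), Psmb9 (chr17:34181987-34187764), Tap1 (chr17:34187553-34197225), Psmb8 (chr17:34197721-34201454), Tap2 (chr17:34203527-34216321) and H2-D1 (chr17:35262730-35267499). B2m is on chromosome 2 (chr2:122147686-122153083), and Nlrc5 (chr8:94434356-94527272) and Psmb10 (chr8:105935735-105938444) are on chromosome 8. Psmb9 and Tap1 run in opposite directions from a shared start region, and their annotated bounds overlap.

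Promoters of 4 of the genes are printed here because their levels are compared with those of interferon-induced genes further on: the heavy and light chains, and the stretch shared by Tap1 and Psmb9. Each runs from 250 bases before to 50 bases after the gene start, 5′ to 3′ on the gene's strand, from RefSeq on GRCm38.p6. Capitals mark matches on either strand to GGGNNTTCC, an NF-kB core, or to GAANNGAAA or GAAANNGAA, the interferon-response cores with a spacing of 2 or 3 bases between the repeats.
H2-K1 (chr17:34000298-34000597, minus strand): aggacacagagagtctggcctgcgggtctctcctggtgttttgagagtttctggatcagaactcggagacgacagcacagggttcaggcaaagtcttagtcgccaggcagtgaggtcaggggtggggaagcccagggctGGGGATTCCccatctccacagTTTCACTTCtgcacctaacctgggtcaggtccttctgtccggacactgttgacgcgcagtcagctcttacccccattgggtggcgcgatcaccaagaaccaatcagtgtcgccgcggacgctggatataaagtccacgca
H2-D1 (chr17:35262844-35263143, plus strand): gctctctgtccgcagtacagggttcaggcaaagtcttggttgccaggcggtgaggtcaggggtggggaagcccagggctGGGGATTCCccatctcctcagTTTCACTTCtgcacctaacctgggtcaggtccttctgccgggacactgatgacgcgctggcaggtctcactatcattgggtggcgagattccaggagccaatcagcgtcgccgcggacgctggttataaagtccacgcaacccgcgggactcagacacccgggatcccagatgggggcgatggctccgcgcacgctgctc
B2m (chr2:122147437-122147736, plus strand): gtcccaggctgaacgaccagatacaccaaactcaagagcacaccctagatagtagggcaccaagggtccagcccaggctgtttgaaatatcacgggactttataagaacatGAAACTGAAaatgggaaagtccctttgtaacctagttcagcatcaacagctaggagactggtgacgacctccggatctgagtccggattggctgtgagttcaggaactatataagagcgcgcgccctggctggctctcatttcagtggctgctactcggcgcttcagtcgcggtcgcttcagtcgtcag
Tap1 (chr17:34187306-34187605, plus strand, overlapping the Psmb9 window): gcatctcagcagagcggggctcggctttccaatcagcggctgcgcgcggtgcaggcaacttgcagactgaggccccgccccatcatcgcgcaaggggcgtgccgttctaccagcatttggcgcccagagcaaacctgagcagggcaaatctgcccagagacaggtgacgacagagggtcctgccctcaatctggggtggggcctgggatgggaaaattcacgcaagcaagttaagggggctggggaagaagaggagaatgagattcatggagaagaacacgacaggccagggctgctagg
H2-K1 and H2-D1 each held GGGNNTTCC followed by GAANNGAAA, read on the other strand. The first began at position -111 in H2-K1 and -171 in H2-D1, and the second at -90 and -150. In a second H2-K1 window (chr17:34000284-34000583) they began at -125 and -104. Positions count from the annotated start, so the distance between the 2 genes' values depends on the start used. B2m held GAAANNGAA at position -139. Of 32851 mouse promoter windows of this length, 5.82% held GGGNNTTCC, 7.52% held GAANNGAAA and 8.56% held GAAANNGAA. None of these 3 patterns was found in the windows of Tap1, Psmb9, Tapbp, Psmb8 or Psmb10. The windows of Tapbp (chr17:33919228-33919527), Psmb8 (chr17:34197945-34198244) and Psmb9 (chr17:34187281-34187580) lay inside the gene bounds given above, as did that of H2-D1. They left out the outermost annotated starts, where the patterns were not searched for. The Psmb8 window held TTCNNNGAA, the core of a gamma-activated site, at position -97, as did 8.30% of all windows.

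A cell entered the sums with 1500 or more unique molecular identifiers (UMIs, 1 per captured transcript), 300 or more detected genes and a mitochondrial share of UMIs up to 20%, which left 3820 vehicle, 4793 p38i and 3859 p38KO cells. The libraries held 21675352, 25996832 and 25997636 UMIs, and 4 or 5 kept barcodes were shared by each pair of libraries. The 10 genes made up 1.01% of kept UMIs in vehicle, 0.932% in p38i and 1.12% in p38KO. Cells fell into 6 gates by 8 lineage genes: neutrophil (1859 vehicle, 2346 p38i and 1428 p38KO cells), monocyte (447, 778 and 383), macrophage (174, 193 and 569), T (540, 646 and 514), NK (117, 114 and 132) and dendritic cell, DC (20, 40 and 41). Each of the 32 lineage markers that the gates did not use had its highest mean over the 3 libraries in its own gate. In vehicle alone, Ccr7, a DC marker here, was at 25.7 CPM in DC and 79.8 CPM in T cells. Median mitochondrial shares were 0.671%, 0.968% and 2.10% in the same order of libraries.

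Levels are given as CPM, a gene's UMIs per 1000000 UMIs summed in a gate, and UMI counts of this 3′ assay do not grow with transcript length. H2-D1 was the most abundant of the 10 genes in T cells, with 5044 CPM in vehicle, 5032 in p38i and 5699 in p38KO. Its level in the other gates ranged from 2991 CPM in p38i monocytes to 4580 CPM in vehicle NK cells. H2-K1 was also highest in T cells, at 2526, 2393 and 2641 CPM, and lowest in neutrophils, at 722, 643 and 965 CPM. Neither heavy chain in T cells overlapped the next gate in any library, while NK cells and macrophages overlapped each other. B2m was close in macrophages (3524 to 3596 CPM) and T cells (3496 to 3519 CPM) and had its lowest mean over libraries in neutrophils (1942 to 2713 CPM), a range that took in that of DC (2322 to 2629 CPM). In neutrophils the H2-K1 level was thus a fraction of that of H2-D1, whereas in T cells the 2 heavy chains were closer. BALB/c mice carry the H2-d haplotype while the mm10 reference carries H2-b, and class I paralogs are near-identical, so how reads were split between heavy chain genes is uncertain.

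**Figure D1:**
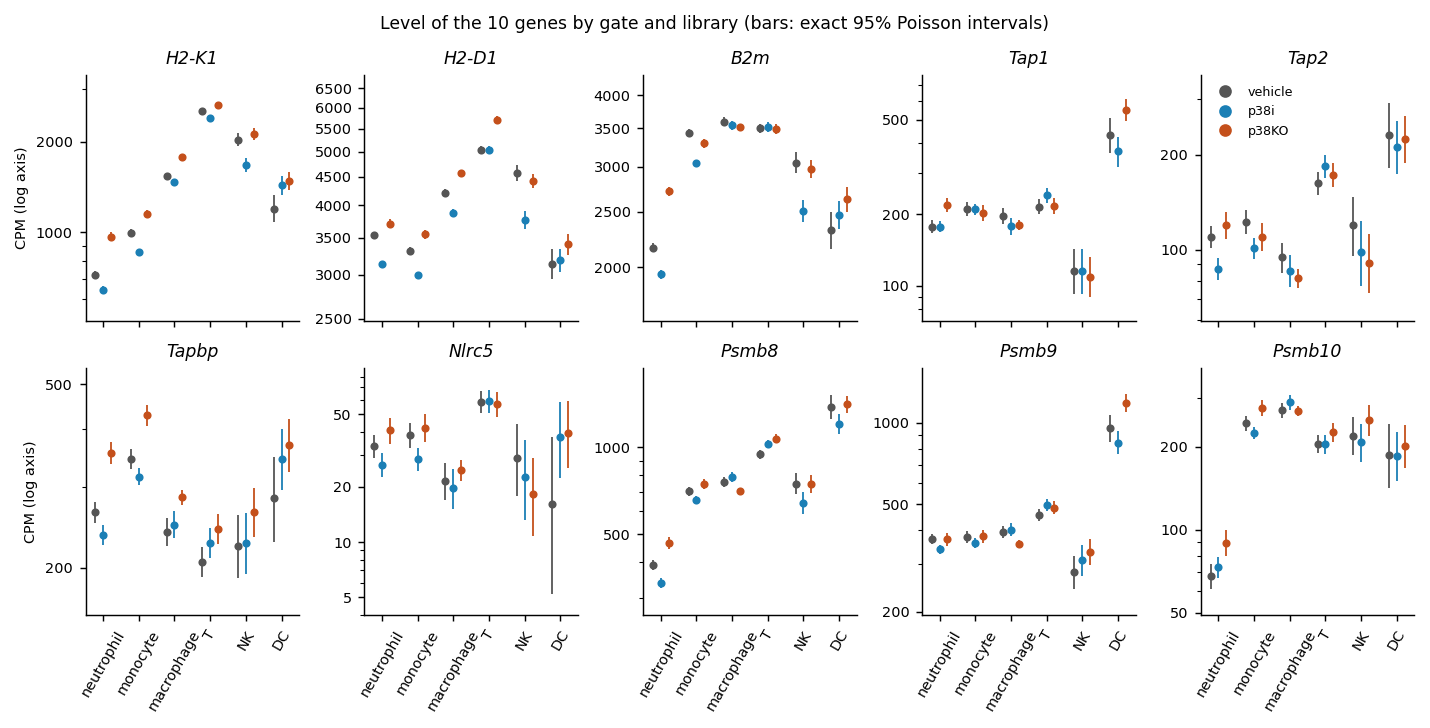
Level of each of the 10 genes (CPM, log axis, scaled per panel) in the 6 gates, with 1 point per library (gray vehicle, blue p38i, orange p38KO) and exact 95% Poisson intervals. H2-K1 and H2-D1 are highest in T cells, Tap1, Tap2, Psmb8 and Psmb9 in DC, and Psmb10 is lowest in neutrophils, at 67.8 to 89.6 CPM.

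The transporter genes had another order. Tap1 was highest in DC, at 431 CPM in vehicle, 368 in p38i and 551 in p38KO, and lowest in NK cells, at 109 to 115 CPM. The other 4 gates lay between 177 and 241 CPM. Tap2 was also highest in DC, at 232, 212 and 225 CPM, followed by T cells at 163 to 184 CPM. Monocytes, neutrophils and NK cells followed for Tap2 with overlapping ranges, and macrophages, at 81.3 to 94.7 CPM, overlapped NK cells. Tapbp had no gate apart from its neighbours, from 206 CPM in vehicle T cells to 428 CPM in p38KO monocytes. Nlrc5 was sparse in every gate. It was highest in T cells, at 58.5, 59.0 and 56.8 CPM, and the other gates overlapped between 16.1 and 42.2 CPM.

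The immunoproteasome genes differed from one another by cell type. Psmb8 was highest in DC (1208 to 1415 CPM), next in T cells (947 to 1073 CPM) and lowest in neutrophils (338 to 467 CPM). Psmb9 was highest in DC as well, at 952 CPM in vehicle, 844 in p38i and 1180 in p38KO, and lay between 280 and 495 CPM elsewhere. Psmb10 had its lowest level in neutrophils, at 67.8, 73.1 and 89.6 CPM, against 185 to 289 CPM in the other gates.

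Set against the constitutive subunit that each replaces, the immunoproteasome subunit made up most of the pair's UMIs in nearly all sums. Psmb8 was 89.8% of Psmb8 and Psmb5 UMIs in vehicle neutrophils (exact 95% binomial interval 88.5 to 91.0%), 82.9% in p38i neutrophils (81.4 to 84.2%) and 88.7% in p38KO neutrophils (87.2 to 90.1%). The p38i value was the lowest of the 3, and its interval met neither of the others. It came with more Psmb5, 70.0 CPM in p38i against 44.4 CPM in vehicle, as well as less Psmb8. Monocyte markers in the neutrophil gate summed to 163 CPM in vehicle, 329 in p38i and 160 in p38KO. In the monocyte gate Psmb5 was at 188, 206 and 180 CPM, and the Psmb8 share was 79.0%, 76.2% and 80.6%. The part of such cells in the neutrophil shares was not tested. Psmb9 was 89.5%, 86.0% and 90.02% of Psmb9 and Psmb6 UMIs in neutrophils and 54.9%, 57.2% and 57.0% in macrophages. Psmb10 was 58.6%, 60.2% and 64.2% of Psmb10 and Psmb7 UMIs in neutrophils, where it was a smaller part of its pair than Psmb8 and Psmb9 were of theirs. In DC the Psmb10 share was 50.9%, 53.4% and 56.2%, with intervals from 41.3 to 62.9%.

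**Figure D2:**
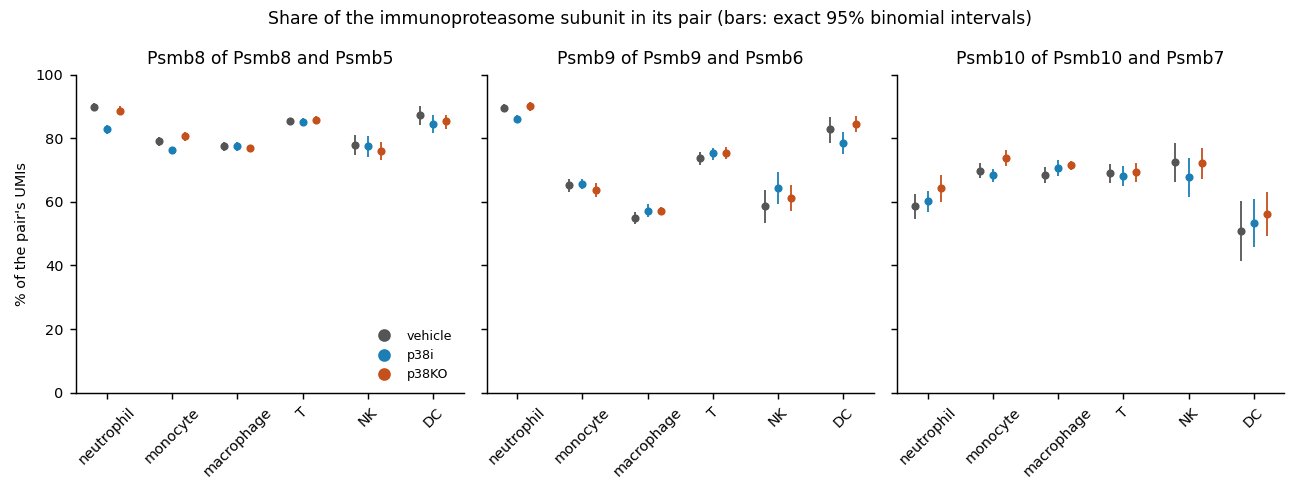
Share of the immunoproteasome subunit in the UMIs of its pair (%), by gate, with 1 point per library (gray vehicle, blue p38i, orange p38KO) and exact 95% binomial intervals. In neutrophils the Psmb8 share is 82.9% in p38i and 88.7 to 89.8% in the other libraries.

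To compare the libraries, a gene was called higher or lower than vehicle when its log2 ratio of CPM was at least 0.5 either way, its exact 95% interval left out 0 and both libraries together held at least 20 counts. By this rule none of the 10 genes was called in any of the 6 gates, in p38i or in p38KO: 0 of 60 gene and gate results were called in each comparison, although every one had enough counts. All genes tested in the same gate give the background. In neutrophils 12.2% of genes were called higher and 3.16% lower in p38i, and 8.73% and 3.04% in p38KO. In monocytes the shares were 4.76% and 2.69% in p38i and 10.3% and 2.26% in p38KO. In macrophages they were 2.95% and 4.08% in p38i and 9.29% and 3.29% in p38KO. In T cells they were 6.28% and 2.29% in p38i and 7.78% and 3.46% in p38KO. In NK cells they were 3.94% and 5.66% in p38i and 4.82% and 6.61% in p38KO, and in DC 8.02% and 4.09% in p38i and 7.43% and 3.65% in p38KO. Of the 120 log2 ratios of the 10 genes, 93 were within 0.25 of 0 and 3 were past 0.5. All 3 were of Nlrc5, in DC and NK cells, and rested on 5 to 24 counts per library.

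**Figure D3:**
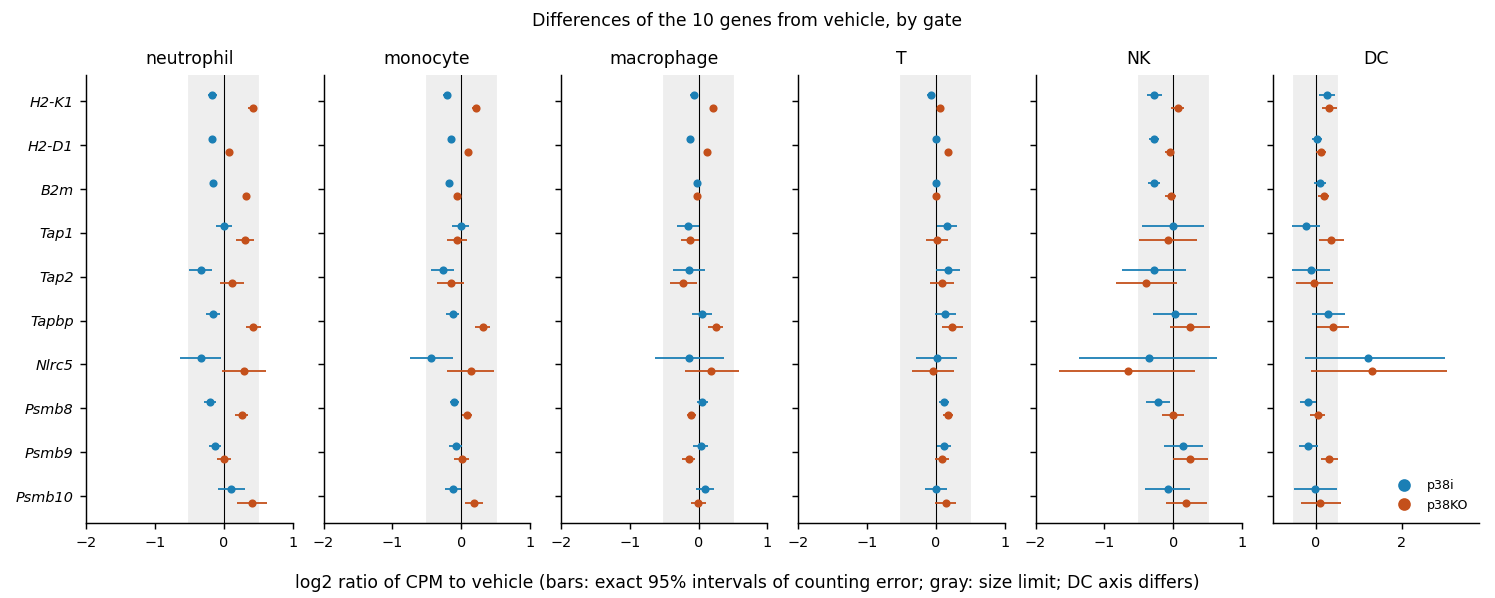
Log2 ratio of CPM to vehicle for the 10 genes in the 6 gates, blue for p38i and orange for p38KO, with exact 95% intervals of counting error. The gray band is the size limit of 0.5 either way. In neutrophils 8 of 10 genes are below 0 in p38i and 9 of 10 above 0 in p38KO, and the values past the band belong to Nlrc5 in NK cells and DC.

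In neutrophils most differences under the size limit had 1 direction in each library, below vehicle in p38i and above it in p38KO. H2-K1 was at 722 CPM in vehicle, 643 in p38i and 965 in p38KO, log2 ratios to vehicle of -0.17 (interval -0.23 to -0.10) and 0.42. Tapbp was at 264, 236 and 354 CPM, log2 ratios of -0.16 and 0.42. B2m was at 2162, 1942 and 2713 CPM, log2 ratios of -0.15 and 0.33. For these 3 genes, and for H2-D1 and Psmb8, p38i was the lowest library and p38KO the highest, with no overlap of the Poisson intervals. The share of all genes ordered in this way was not counted. H2-D1 was at 3535, 3140 and 3709 CPM, so that the p38KO library was only 0.07 above vehicle on the log2 scale. Psmb8 was at 390, 338 and 467 CPM, log2 ratios of -0.21 and 0.26. Psmb9 was at 371, 340 and 370 CPM, with p38KO level with vehicle. Tap1 differed in the other library, at 177 CPM in vehicle and in p38i and 219 CPM in p38KO. Tap2 was at 110, 87.1 and 120 CPM, Nlrc5 at 33.5, 26.5 and 40.8 CPM, and Psmb10 at 67.8, 73.1 and 89.6 CPM. The median log2 ratio of the 10 genes was -0.16 in p38i and 0.30 in p38KO, against 0.16 and 0.08 over all genes tested. The intervals of 8 genes lay below 0 in p38i, and those of 7 genes above 0 in p38KO. The share of all genes with such intervals was not counted, so these numbers have no background. With many counts an interval leaves out 0 at a small ratio, as for H2-D1 in p38KO (0.07, interval 0.04 to 0.10).

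After values were seen, the p38KO neutrophils were also set directly against the p38i neutrophils. Each direct log2 ratio is the difference of the gene's ratios to vehicle given above, so it adds no separate support. All 10 genes were higher in p38KO, with a median log2 ratio of 0.46 and a range of 0.12 to 0.62, and every interval was above 0. Here too the share of all genes with intervals above 0 was not counted. Of the 10 genes, 3 passed the size limit: H2-K1 at 0.58, Tapbp at 0.59 and Nlrc5 at 0.62. The background for this comparison was 9.28% of genes called higher and 11% called lower. In the other gates the same comparison had medians of 0.22 in monocytes, 0.01 in macrophages, 0.03 in T cells, 0.22 in NK cells and 0.10 in DC. Macrophages and T cells had 5 of 10 genes on each side of 0, with Psmb8 at -0.16 and Psmb9 at -0.17 in macrophages. Nlrc5 in monocytes (0.57) and Tap1 in DC (0.58) were also called higher in p38KO. The backgrounds were 8.47% called higher and 2.55% lower in monocytes, and 4.88% and 4.79% in DC.

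Markers of other cells also differed between the neutrophil sums. The summed mast cell and basophil markers in the neutrophil gate were at 1.07 CPM in vehicle, 40.2 in p38i and 122 in p38KO, and macrophage markers at 287, 525 and 490 CPM. Monocyte markers summed to 163, 329 and 160 CPM and DC markers, mostly class II genes, to 972, 1369 and 775 CPM, both highest in p38i. Among the 5 neutrophil markers themselves, Retnlg was at 2496, 4195 and 1143 CPM, G0s2 at 6459, 3543 and 5703 CPM and Mmp9 at 518, 500 and 537 CPM. S100a8 was at 68341, 77963 and 52589 CPM and S100a9 at 102533, 110203 and 81197 CPM. These 2 genes held a large part of the gate's UMIs in each library. Without the 7, 9 and 19 neutrophils that carried mast cell, basophil or epithelial markers, the median of the 10 genes was -0.16 in p38i and 0.31 in p38KO, and 0.47 between p38KO and p38i. The part of the monocyte, macrophage and DC markers was not tested.

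In monocytes the p38i library was below vehicle for 10 of 10 genes, with a median log2 ratio of -0.14 against 0.05 over all genes. H2-K1 was at 991 CPM in vehicle, 857 in p38i and 1151 in p38KO, and Tapbp at 344, 315 and 428 CPM. Both were thus ordered as in neutrophils. B2m was at 3432, 3041 and 3296 CPM, lower than vehicle in both libraries. Nlrc5 had the lowest ratio, with 38.3, 28.3 and 42.2 CPM and -0.44 in p38i (interval -0.75 to -0.12). In p38KO monocytes the median was 0.09, close to the 0.11 of all genes. Neutrophil markers in the monocyte gate summed to 10538, 8818 and 3152 CPM in vehicle, p38i and p38KO, and epithelial markers to 5.95, 4.31 and 133 CPM. Without the 5, 8 and 10 monocytes that carried epithelial, mast cell or basophil markers, the median of the 10 genes was -0.14 in p38i and 0.07 in p38KO. The part of the neutrophil markers in the ratios was not tested.

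In macrophages the medians were -0.04 in p38i and -0.02 in p38KO. H2-K1 was at 1532, 1464 and 1771 CPM and H2-D1 at 4217, 3872 and 4575 CPM, highest in p38KO. Psmb8 went the other way, at 760 CPM in vehicle, 790 in p38i and 707 in p38KO, as did Psmb9, at 395, 403 and 357 CPM. The heavy chains and these immunoproteasome genes therefore had p38KO ratios of opposite sign in macrophages, 0.21 and 0.12 against -0.10 and -0.15. B2m differed by at most 0.03 on the log2 scale. In the macrophage gate, class II and other DC markers summed to 22409 CPM in vehicle, 22923 in p38i and 30349 in p38KO. Macrophage markers summed to 17664, 20732 and 28367 CPM, with Apoe at 10783, 14068 and 20038 CPM, and mast cell and basophil markers to 0.292, 0 and 42.2 CPM. Each of these sums was highest in p38KO, as the heavy chains were, and their part was not tested apart from the last. Without the 2, 4 and 22 macrophages with mast cell, basophil or epithelial markers, H2-K1 had a p38KO ratio of 0.21 and H2-D1 of 0.12.

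CD8+ T cells are the cells that class I peptides are shown to, and the T gate also held other T cells. In the whole T gate the ratios of the 10 genes ran from -0.08 to 0.18 in p38i and from -0.04 to 0.24 in p38KO. B2m was at 3501, 3519 and 3496 CPM. H2-D1 was at 5044, 5032 and 5699 CPM, a log2 ratio of 0.18 in p38KO. Psmb8 was at 947, 1027 and 1073 CPM, above vehicle in both libraries. The medians of 0.06 in p38i and 0.09 in p38KO were below those of all genes, 0.09 and 0.11. T cells were also divided by Cd8a, Cd8b1 and Cd4 UMIs after each cell was thinned to 1500 UMIs, so a chain could be missed. CD8 cells had Cd8a or Cd8b1 and no Cd4 (248, 221 and 142 cells, or 45.9%, 34.2% and 27.6% of the gate). CD4 cells had Cd4 and neither Cd8 chain (82, 94 and 112 cells, or 15.2%, 14.6% and 21.8%). The other T cells were in neither set, and levels were summed at full depth. H2-D1 was lower in CD8 than in CD4 cells in each library. Its log2 ratios were -0.29 in vehicle, -0.41 in p38i and -0.45 in p38KO. H2-K1 had ratios of -0.04, -0.11 and -0.61 between the same cells. Psmb10 had 0.42, -0.21 and 0.88, of differing sign. Against vehicle, no gene was called in the CD8 cells, and no share of all genes called is given for these cells. In the CD4 cells Psmb10 was called higher in p38i, at 143, 220 and 138 CPM, a log2 ratio of 0.62 (interval 0.10 to 1.145), with a background of 4.22%. H2-K1 in CD4 cells was at 2690, 2667 and 3627 CPM, a p38KO ratio of 0.43, and H2-D1 at 5937, 6124 and 7075 CPM, a p38KO ratio of 0.25, neither of them called.

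In NK cells 8 of 10 genes were below vehicle in p38i, with a median of -0.25 against -0.05 over all genes. H2-K1 was at 2030, 1675 and 2120 CPM, H2-D1 at 4580, 3762 and 4423 CPM, and B2m at 3049, 2508 and 2976 CPM, so the p38i library was lowest for each. DC markers in the NK gate summed to 481, 1485 and 369 CPM in the same order, and mast cell and basophil markers to 1.37, 1.33 and 427 CPM. Without 3 vehicle and 12 p38KO NK-gated cells that carried markers of other cells, the median of the 10 genes was -0.23 in p38i and -0.01 in p38KO. The part of the DC markers was not tested. The DC gate held few cells. With each cell thinned to 1500 UMIs, 1, 7 and 5 had at least 2 UMIs of the maturation genes Ccr7 and Fscn1. These were too few to describe apart, and such cells were not counted at full depth. In the whole DC gate H2-K1 was at 1196, 1428 and 1480 CPM and Psmb9 at 952, 844 and 1180 CPM. There 9 of 10 genes were above vehicle in p38KO, with a median of 0.24 against 0.09 over all genes. Nlrc5 counts in DC were 5, 19 and 24, and the wide intervals of its ratios included 0.

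The genes around the pathway were read from 10 lists. In neutrophils the median ratios of the type I interferon response genes were further from 0 than those of the 10 class I genes. Of 7 type I interferon response genes tested, 7 were called lower in p38i, with a median log2 ratio of -1.78, and 5 were called higher in p38KO, with a median of 0.73. Rsad2, which encodes the antiviral protein viperin, was at 1250, 340 and 2147 CPM, and Isg15, a ubiquitin-like modifier, at 2093, 931 and 2770 CPM. In p38KO the log2 ratios of Isg15 (0.40) and Usp18 (0.42) were within the range of the 10 class I genes. Of 11 interferon-gamma response genes, 2 were called lower in p38i (Gbp5 and Cxcl10) and 5 higher in p38KO, with medians of -0.25 and 0.52. The p38i median was thus near the -0.16 of the 10 genes, and single genes ran from -0.74 for Cxcl10 to 0.41 for Cxcl9. Cxcl10, a chemokine that attracts T cells, was at 373, 222 and 1127 CPM. Other class I heavy chains had medians of -0.23 and 0.52, and 3 of 7 tested were called higher in p38KO: H2-Q7 at 48.5, 39.9 and 73.3 CPM, H2-T22 at 40.1, 34.3 and 63.9 CPM and H2-T24 at 18.4, 14.9 and 26.5 CPM. In p38i, 1 of 8 was called higher, H2-M3 at 5.01 CPM in vehicle and 10.4 CPM in p38i. The uncertain split of reads between class I heavy chain genes applies to these values too.

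Other proteasome and loading genes had few calls in neutrophils, where 12.2% of all genes were called higher in p38i and 8.73% in p38KO. The 12 other 20S core genes had a median of 0.33 in p38i and -0.02 in p38KO, and 2 were called higher in p38i, Psma4 and Pomp, which encodes the proteasome maturation protein (90.9, 149 and 97.8 CPM). Of the 3 constitutive catalytic genes, Psmb5 was called higher in p38i, and the list medians were 0.34 and 0.06. The 2 proteasome activator genes, Psme1 and Psme2, were not called, with medians of -0.03 and 0.19. Of 6 loading and trimming genes, Erap1, a peptidase that trims peptides, was called higher in p38i (6.98, 11.2 and 9.10 CPM) and Tapbpl, a tapasin-related editor, in p38KO (18.8, 17.7 and 33.4 CPM). With 1 or 2 called genes in a list, nothing is read from these counts beside that background. The 12 other core genes lay between 0.11 and 0.71 in p38i, beside a median of 0.16 over all genes. Monocyte markers were also higher in the p38i neutrophil gate than in vehicle, and their part was not tested.

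**Figure D4:**
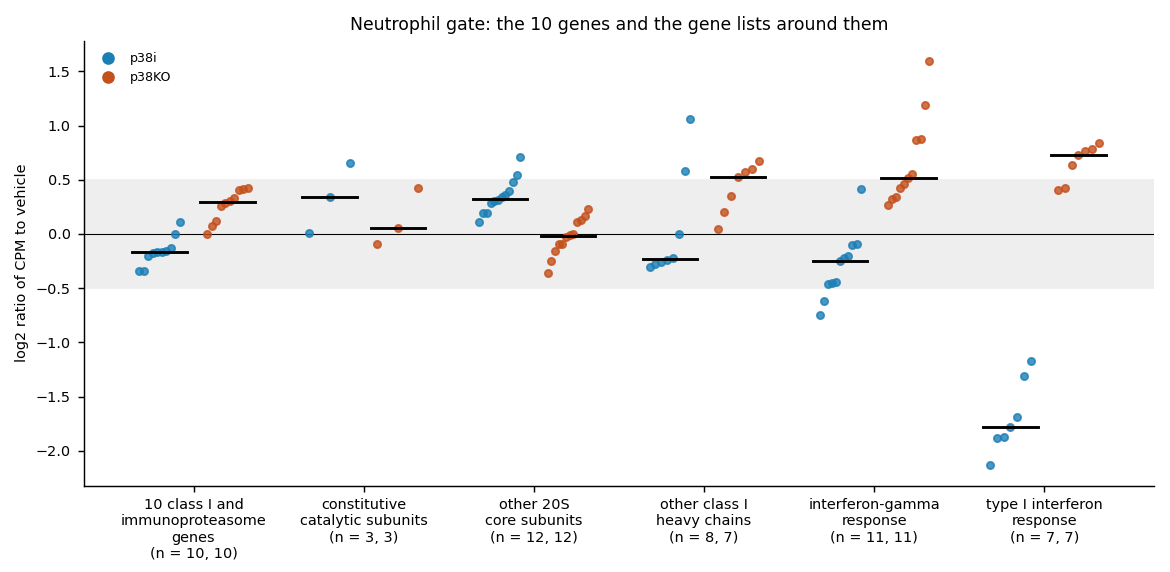
Log2 ratio of CPM to vehicle in the neutrophil gate, blue for p38i and orange for p38KO, with 1 point per gene and black bars at list medians; n gives the genes tested in p38i and in p38KO. The 10 genes have medians of -0.16 and 0.30, and the type I interferon response genes -1.78 and 0.73.

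The type I interferon list varied by gate. In monocytes 6 of 7 were called lower in p38i (median -0.68) and 5 higher in p38KO (median 0.89). In macrophages 7 of 7 were called higher in p38KO (median 1.07), beside a median of -0.02 for the 10 class I genes. In p38i macrophages none was called lower and 1 was called higher, Ifit2 at 14.3 CPM in vehicle and 27.5 CPM in p38i, with a median of -0.19. In T cells 6 of 7 were called lower in p38i (median -1.02), where the 10 genes had a median of 0.06. In p38KO T cells 2 were called lower, Rsad2 (66.2, 15.8 and 33.7 CPM) and Oasl1 (11.53, 1.89 and 2.46 CPM), with a median of -0.40. Oasl1 there rested on 39 counts in vehicle and 7 in p38KO. The list was mixed in these cells, with Ifit1 (0.45, interval 0.15 to 0.75), Ifit3 (0.23) and Isg15 (0.11) above vehicle. Ifit2 (-0.40) and Usp18 (-0.41) were below it, with intervals that included 0. NK cells had 2 of 3 tested genes called lower in p38i and 1 of 5 higher in p38KO, and DC 0 of 3 in p38i and 1 of 3 higher in p38KO. The interferon-gamma response list had 4 of 11 genes called lower in p38KO macrophages, among them Cxcl9 at 1535, 602 and 481 CPM, and 2 called lower in p38i macrophages, Cxcl9 and Cxcl10.

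The neutrophils were then divided by their own interferon-gene UMIs. After each cell was thinned to 1500 UMIs, those with at least 2 UMIs over Ifit1, Ifit2, Ifit3, Rsad2 and Isg15 made up 52.3% of neutrophils in vehicle (exact 95% interval 49.99 to 54.6%), 36.2% in p38i (34.3 to 38.2%) and 63.7% in p38KO (61.2 to 66.2%). At the same depth NK cells had 2.56%, 0.877% and 1.52% such cells, and T cells 7.78%, 4.18% and 8.37%. Neutrophils with none of these UMIs made up 33.6%, 45.1% and 24.02%. Median depths of the 2 kinds of neutrophil were alike within each library, for example 2469 and 2479 UMIs in vehicle.

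Each of the 10 genes was higher in neutrophils with at least 2 interferon-gene UMIs than in those with none, in all 3 libraries. Cells with 1 such UMI were not part of this comparison. H2-K1 was at 938 against 459 CPM in vehicle, 870 against 506 CPM in p38i and 1169 against 584 CPM in p38KO. B2m was at 2746 against 1447, 2463 against 1628 and 3293 against 1659 CPM. As folds these were 2.04, 1.72 and 2.001 for H2-K1 and 1.90, 1.51 and 1.99 for B2m, smallest in p38i. H2-D1 differed least, by a log2 ratio of 0.54, 0.53 and 0.46. Tap1 was at 237 against 117 CPM in vehicle, 242 against 130 in p38i and 283 against 91.0 in p38KO, and Psmb8 at 537 against 237, 447 against 273 and 594 against 223 CPM. Nlrc5 had the largest ratios, 1.65, 1.11 and 3.03, the last on 6 counts in the p38KO cells without interferon-gene UMIs. Cells were chosen here by 5 other genes measured in the same cells, so these are descriptions with no test.

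**Figure D5:**
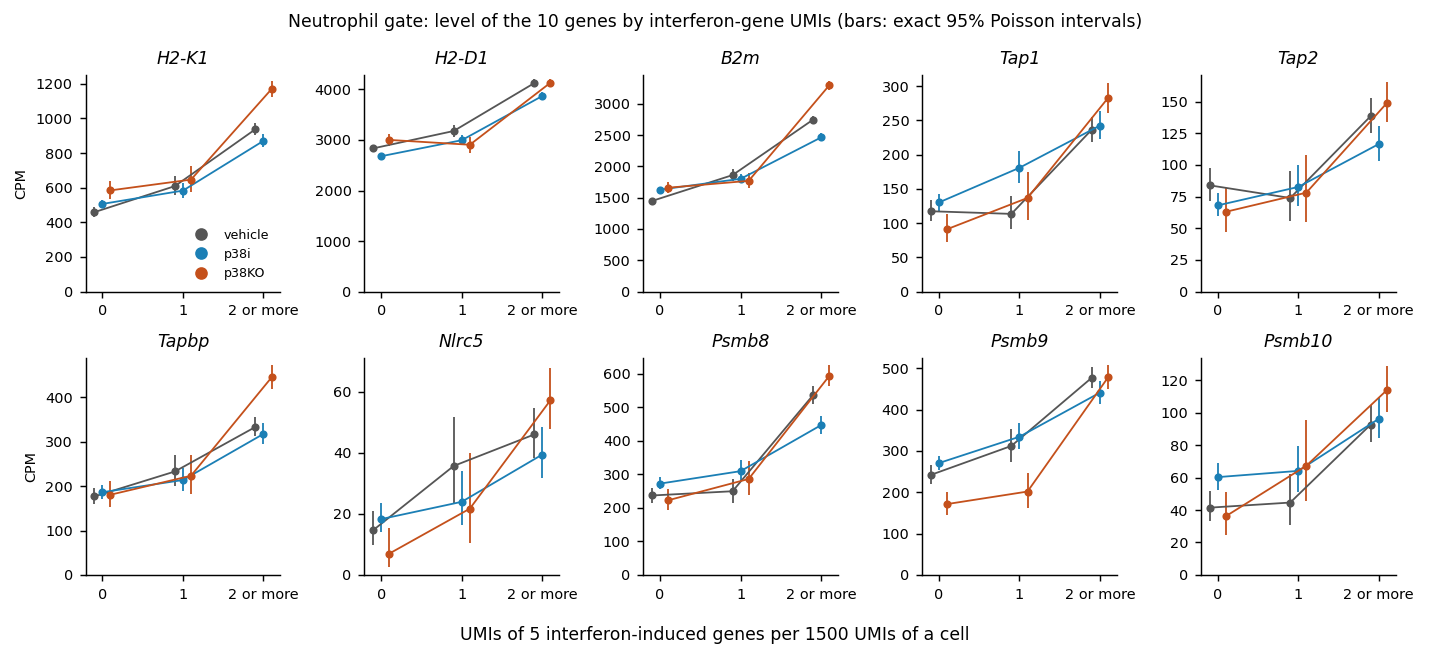
Level of the 10 genes (CPM, axes from 0) in neutrophils with 0, 1 or at least 2 UMIs of 5 interferon-induced genes per 1500 UMIs, with 1 line per library (gray vehicle, blue p38i, orange p38KO) and exact 95% Poisson intervals. Each gene is higher at 2 or more than at 0 in each library.

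Within each kind of neutrophil the libraries were compared again. Among neutrophils with no interferon-gene UMI the median log2 ratio of the 10 genes was 0.16 in p38i and -0.14 in p38KO. No median over all genes was taken for these cells, and that of the whole gate in p38i was also 0.16. In p38KO the genes were mixed, with H2-K1 (0.35), B2m (0.20), H2-D1 (0.08) and Tapbp (0.03) above vehicle. Tap1, Tap2, Nlrc5, Psmb8, Psmb9 and Psmb10 were below, and of these only the interval of Psmb9 (-0.77 to -0.23) left out 0. H2-K1 in these cells was at 459, 506 and 584 CPM, B2m at 1447, 1628 and 1659 CPM, and Psmb9 at 242, 271 and 171 CPM. Psmb10 was called higher in p38i, at 41.5, 60.3 and 36.2 CPM, a log2 ratio of 0.54, with a background of 8.04%. Among neutrophils with 1 such UMI the medians were 0.03 and 0.01. Tap1 was called higher in p38i there, at 113, 181 and 137 CPM, a log2 ratio of 0.67, with a background of 7.13%. Psmb9 was called lower in p38KO, at 312, 334 and 202 CPM, a log2 ratio of -0.63, with a background of 3.32%. Among those with at least 2 the medians were -0.11 and 0.26, and H2-K1 was at 938, 870 and 1169 CPM, with no gene called. No share of all genes called is given for those cells. When the levels in cells with 0, 1 and at least 2 such UMIs were weighted by the shares of UMIs these cells held in vehicle, the median log2 ratio moved from -0.16 to -0.05 in p38i and from 0.30 to 0.12 in p38KO. The weighted ratio of H2-K1 was -0.04 in p38i and 0.30 in p38KO, that of Tapbp -0.04 and 0.28, and that of Psmb8 -0.09 and 0.10. After weighting, 8 of 10 genes were below 0 in p38i and 8 of 10 above 0 in p38KO. The weighted ratios ran from -0.22 to 0.22 in p38i and from -0.17 to 0.30 in p38KO. They have no intervals, and no such share was taken over all genes. Interferon-gene levels within the cells with at least 2 such UMIs were not matched between libraries.

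Over the 18 sums of gate and library, which share libraries and cells' depth and are given as a description, the 10 genes fell into more than 1 pattern. Tap1, Tap2 and Psmb9 were each highest in DC, and any part of the start region that Tap1 and Psmb9 share was not tested. Tap1 and Psmb9 had a Pearson r of 0.94 on log2(CPM + 1), and Tap2 and Psmb9 0.85. H2-K1 and H2-D1 had 0.84. H2-K1 and Tap1 had -0.11, and H2-D1 and Tapbp -0.57, so the heavy chains and the loading genes were not ordered alike over cell types. Among 7089 other genes, the one most like H2-K1 was H2-Q7, another class I heavy chain, with r of 0.97. How reads were split between these heavy chain genes is uncertain, as stated above. The most like Tap2 after Tnp2 was Ccr7, a chemokine receptor of mature DC and T cells, with 0.92, and H2-T23 was second for Nlrc5 with 0.84.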

How the data were processed

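The deposited files are raw UMI counts per gene and barcode, made by the authors with Cell Ranger (version 6.0.0 per the file headers) on mm10; the annotation release is not given in the sources used here. The submitters' notes also list R 4.2.1 and Seurat 5, whose output was not used here. No cell annotation was used. Doublets were not called; leaving out the deepest cells of each gate was an alternative. Gates used raw UMIs of Csf3r, Cxcr2, Ly6c2, Fn1, C1qa, Cd3e, Ncr1 and Flt3. A T cell had Cd3e, an NK cell Ncr1 and a DC Flt3 at 1 UMI or more, without the others. A macrophage had C1qa at 2 or more, a monocyte at least 2 UMIs of Ly6c2 and Fn1 that outnumbered Csf3r and Cxcr2, and a neutrophil at least 1 UMI of Csf3r and Cxcr2 that Ly6c2 and Fn1 did not outnumber. Cells meeting no gate (663, 676 and 792) were left out.

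Counts were summed per library and gate and scaled to CPM, with exact Poisson 95% intervals. Log2 ratios had exact conditional binomial intervals, with 0.5 in place of a count of 0. The calling script was tested on simulated data. The 10 genes and the gene lists were chosen with earlier results of these data known, and the comparison of p38KO with p38i and the weighting by interferon-gene UMIs were added after values were seen. Named genes are the 10 genes, list genes that were called or that the text needs, and the 3 genes most like each of the 10 over the 18 sums, of which a few are given. Motif spacings were settled after a first search. Positions come from the GENCODE annotation on GRCm38. Tools were Python 3.11.15, numpy 2.4.6, scipy 1.17.1, pandas 2.3.3 and matplotlib 3.10.9. Other settings tried were no cell filter, median-ratio scaling, a stricter gate, thinning to 1500 UMIs, leaving out cells above the 95th percentile of UMIs and a mitochondrial limit of 5%. A further 1, leaving out gated cells that carry markers of other cell types, was chosen after seeing the data.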

Additional observations from a re-analysis of the deposited data

Results flagged for a closer look

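In neutrophils, H2-K1 and Tapbp lay on opposite sides of vehicle in p38i and in p38KO, with both intervals leaving out 0 and a direct log2 ratio of p38KO to p38i past 0.5. H2-K1 had log2 ratios of -0.17 in p38i and 0.42 in p38KO. Tapbp had -0.16 and 0.42. The direct ratio is the difference of these ratios and adds no separate support. With 1 library per group the difference was not tested, and each ratio alone is under the size limit of 0.5.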

How the results depend on the processing

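None of the 10 genes was called against vehicle in the 6 gates under the main settings (calls in parts of the neutrophil and T gates are given with those cells), and leaving out 1 replicate could not be run with 1 library per group. No paired analysis was possible because each group has 1 library. The count of gene and gate results called higher in p38i went from 0 to 1 with the stricter gate (H2-K1 in DC, 0.84) and to 1 without cells above the 95th percentile of UMIs (Nlrc5 in DC, 1.91), and the count called lower in p38i to 1 with the stricter gate (Nlrc5 in monocytes, -0.53). The count called higher in p38KO went to 2 with each cell thinned to 1500 UMIs (Nlrc5 in monocytes, 0.85, and B2m in DC, 0.57), to 1 without cells above the 95th percentile (Nlrc5 in DC, 1.99) and to 1 with the mitochondrial limit of 5% (Tapbp in DC, 0.50). At full depth Nlrc5 in p38KO monocytes had a log2 ratio of 0.14. No share of all genes called is given for these settings, so the calls have no background. No other count of calls moved, and none was called lower in p38KO under any of the 7 alternatives. The cause was not tested. Single ratios of a gene in a gate also varied by setting, most often with thinning and then with median-ratio scaling. The median of the 10 genes stayed below 0 in p38i neutrophils (-0.32 to -0.14), monocytes (-0.19 to -0.12) and NK cells (-0.26 to -0.19), and above 0 in p38KO neutrophils (0.21 to 0.33) and DC (0.16 to 0.31). It changed sign with median-ratio scaling in p38KO monocytes (-0.02) and in T cells (-0.03 in p38i and -0.02 in p38KO), and in some settings in macrophages, p38KO NK cells and p38i DC. Depth limits Nlrc5 most, with 5 to 225 counts per sum, and the DC gate, with 20 to 41 cells.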

Other observations

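Regulators of the pathway were also counted. In neutrophils 1 of 12 was called higher in p38i and 1 in p38KO, beside 12.2% and 8.73% of all genes. In macrophages 1 of 12 was called higher in p38KO, beside 9.29%. Irf1, a transcription factor that acts on class I promoters, was called higher in both libraries in T cells, at 86.0 CPM in vehicle, 135 in p38i and 127 in p38KO, and in NK cells, at 79.7, 130.1 and 133 CPM. Irf8 was called lower in p38KO T cells (156, 138 and 77.2 CPM), in NK cells of both libraries (1303, 787 and 861 CPM) and in p38i DC (2286, 1511 and 2053 CPM). Stat2, a component of the type I interferon response factor, was called higher in p38KO neutrophils (85.3, 77.8 and 134 CPM), macrophages (51.7, 49.9 and 74.0 CPM) and DC (67.5, 66.9 and 120.01 CPM), and in p38i T cells (30.8, 43.5 and 36.5 CPM). Nfkb1 was called higher in DC of both libraries, and Ciita in p38i neutrophils. Rfx5 in p38i T cells, Rfxank in p38KO T cells and Irf2 in p38KO NK cells were called lower. None of the 12 regulators was called in monocytes. T cells had 2 higher and 1 lower in p38i, beside 6.28% and 2.29%, and 1 and 2 in p38KO, beside 7.78% and 3.46%. NK cells had 1 higher and 1 lower of 9 in p38i, and 1 and 2 of 10 in p38KO, beside 3.94% to 6.61%. DC had 1 higher and 1 lower of 10 in p38i, beside 8.02% and 4.09%, and 3 higher in p38KO, beside 7.43%. Nothing is read from these counts.

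Among 5 genes of the interferon-gamma receptor and its signal, Socs1, a feedback inhibitor of the receptor's kinases, was called higher in p38KO neutrophils (122, 133 and 211 CPM), in monocytes of both libraries (81.1, 121 and 151 CPM), in p38KO T cells (202, 238 and 291 CPM) and in DC of both libraries (19.3, 138 and 113 CPM), where the vehicle value rests on 6 counts. Jak2, one of those kinases, was called higher in p38KO neutrophils (61.9, 66.0 and 115 CPM) and monocytes (98.3, 124 and 157 CPM) and in DC of both libraries (122, 187 and 249.9 CPM). Ifngr1, a receptor chain, was called lower in NK cells of both libraries (900.4, 601 and 548 CPM), and Ifngr2 higher in p38KO DC. Of the 3 ligands listed, Tnf was called higher in p38KO neutrophils, at 22.5, 22.5 and 54.3 CPM, and in macrophages of both libraries, at 5.84, 14.9 and 14.8 CPM, and lower in p38i T cells, at 44.9, 25.2 and 38.6 CPM. Ifng was called higher in p38KO NK cells, at 37.1, 26.5 and 93.2 CPM. Of 5 signal genes, 2 were called higher in p38KO neutrophils, 1 in p38i and 2 in p38KO monocytes, and 1 in p38KO T cells. In DC 2 of 5 were called higher in p38i and 3 in p38KO, and in NK cells 1 of 4 was called lower in each library. Only 1 or 2 ligands had enough counts in these gates. With lists this short, nothing is read from these counts beside the shares of all genes given above.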
